A study of Mus musculus with 6 samples.

Results

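Transcripts of enzymes that build the sugar chains of mucins, other glycoproteins and glycolipids were followed in bladders of mouse embryos with a deletion of Klf5, the gene of an epithelial transcription factor of the Kruppel-like family. The enzymes were 20 sialyltransferases, 7 fucosyltransferases, 10 GalNAc transferases of the Galnt family, 4 branching enzymes of the Gcnt family and 4 extension enzymes of the B3gnt family. Each was taken by its gene symbol from the array features annotated with a single symbol, and 44 of the 45 were measured, among 19938 genes in all. Fut1 had no such feature and was not analysed here. St3gal1 and Fut11 had 2 features each, and for these the feature was chosen by its higher mean log2 level across the 6 arrays, whichever genotype. The 45 symbols were listed with results of these arrays already known, so counts over them are descriptions.

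Each of 6 Affymetrix Mouse Gene 1.0 ST arrays carried RNA of 1 sample, 3 per genotype, and a sample pooled 2 whole bladders of stage E14.5. The Klf5-deleted embryos were labelled Klf5 ∆/∆, a deletion on both alleles. The controls were labelled Klf5+/+ShhGfpCre+, with intact Klf5 and an allele that makes a fusion of GFP and the Cre recombinase from the Shh locus. Shh is made by the epithelium that lines the bladder. The label of the deleted embryos does not name the Cre allele, and the study is taken here to have deleted Klf5 through it, so that bladder cells without Shh would keep the gene. Nothing in the labels says whether pools came from different litters, so p-values measure the spread between these pools, which may in part be technical.

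Mucin-type O-glycans begin when a Galnt enzyme attaches N-acetylgalactosamine to a serine or threonine. Galactosyl, Gcnt and B3gnt enzymes then lengthen and branch the chain, and sialyl- and fucosyltransferases cap it. The same capping steps finish N-glycans and glycolipids, and the caps form blood-group antigens, gangliosides and polysialic acid. The surface of the bladder lining is coated with such glycans, and the uroplakins beneath them are glycoproteins too.

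Values are log2 expression from RMA, which the authors deposited. Differences are Klf5-deleted minus control, and adjusted p-values come from limma over all 19938 genes with a threshold of 0.05. Klf5 itself read 10.12, 10.34 and 10.23 on the 3 Klf5-deleted arrays, against 10.84, 10.63 and 10.97 on the 3 control arrays. The difference was -0.59 (adjusted p = 0.0381 by limma, SE 0.10). Of the 6 fits with 1 array left out, the fit without control 2 was the only one in which Klf5 passed. It also missed the threshold with arrays centred on their median (adjusted p = 0.061 by limma) or on the median of 9 housekeeping genes (difference -0.37, adjusted p = 0.0651 by limma). Over all genes 395 passed, which is 1.98%, with 318 falls (1.59%) and 77 rises (0.386%). Control 2 stood apart in placental transcripts: the mean log2 level of 4 placenta and decidua markers was 11.0 there and 5.59 to 7.47 on the other 5 arrays. Without control 2 the calls over all genes were 285 falls and 64 rises, and called enzymes are given below without it too. The label names bladder urothelium, while the protocol names whole bladders. Of 12 urothelium markers 9 fell and none rose, and their mean log2 level was 9.22 to 9.51 in Klf5-deleted and 10.82 to 10.98 in control bladders. The means of 6 smooth muscle markers were 12.26 to 12.56 and 12.52 to 12.87, and those of 6 mesenchyme markers 13.07 to 13.18 and 13.12 to 13.19, in Klf5-deleted and control bladders. No gene of either list passed, and limma gave 4 of the smooth muscle and 1 of the mesenchyme markers an unadjusted p under 0.05, beside 14.4% of all genes. All 6 smooth muscle markers were lower, with a median difference of -0.28. Of the mesenchyme markers 5 were lower and 1 was higher. The groups did not overlap for 5 of the smooth muscle and 1 of the mesenchyme markers, beside 20.5% of all genes.

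Of the 44 enzymes, 5 passed the threshold, or 11.4%, beside 1.98% of all genes. The fucosyltransferase gene Fut2 and the sialyltransferase gene St6galnac2 fell. The sialyltransferase genes St6gal2, St8sia1 and St8sia4 rose. No gene of the Galnt, Gcnt or B3gnt families passed among 10, 4 and 4 measured. An unadjusted p under 0.05 by limma was given to 3 of 10, 1 of 4 and 1 of 4, beside 14.4% of all genes. The median difference of the 44 was -0.038, and -0.010 over all genes tested, with 23 enzymes lower and 21 higher. Without control 2, 3 enzymes passed, Fut2, St6galnac2 and St6gal2. Over all 44 enzymes, 15 had an unadjusted p under 0.05 by limma, beside the same 14.4%. The groups did not overlap for 19 of the 44, or 43.2%, beside 20.5% of all genes. Lower without overlap were 11 of the 44, beside 2351 of 19938 genes (11.8%). Higher without overlap were 8 of the 44, beside 1729 of 19938 (8.67%).

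**Figure D1:**
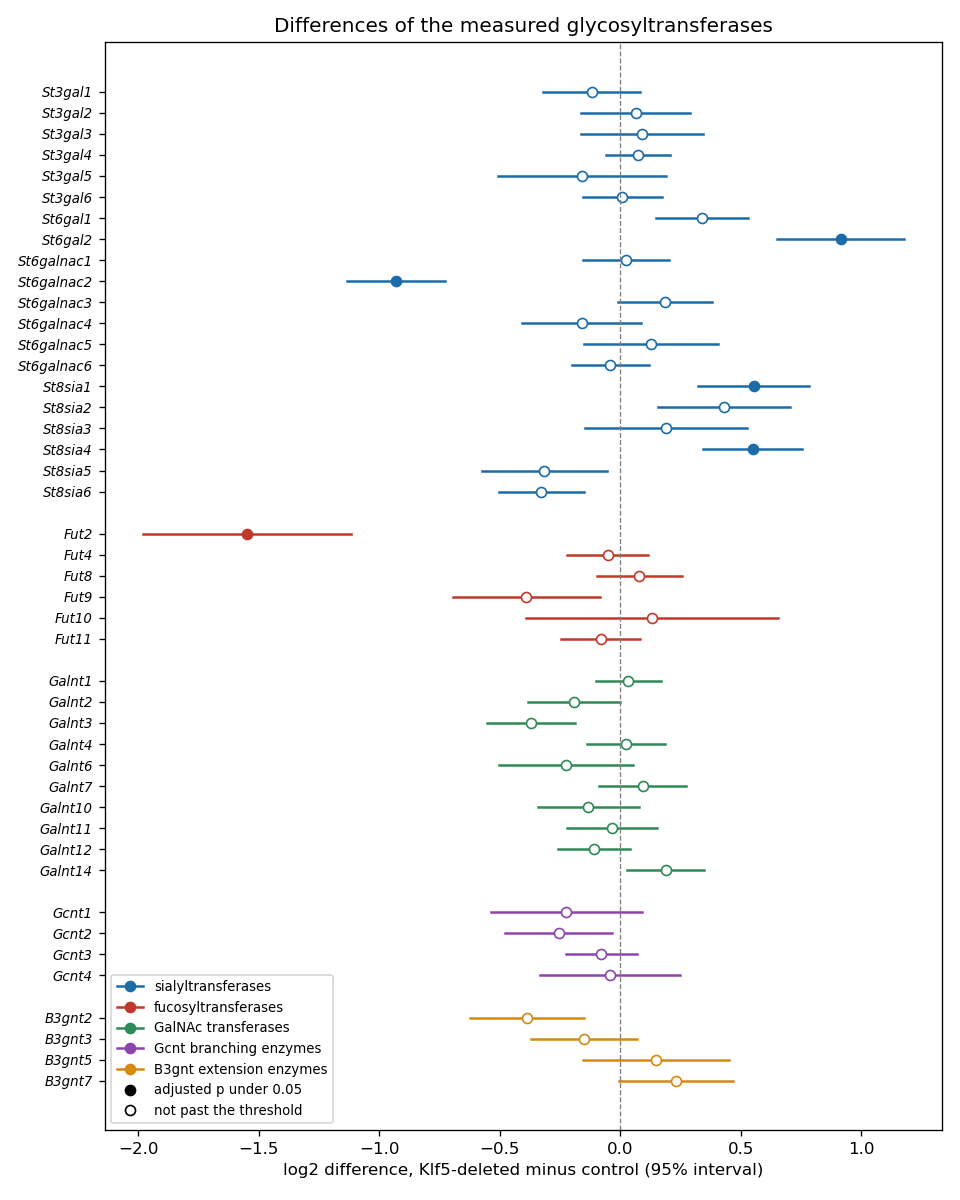
Log2 difference (Klf5-deleted minus control, horizontal axis) of the 44 measured enzymes, coloured by class. Points are limma estimates from 3 arrays per genotype, lines are 95% intervals, and filled points passed an adjusted p of 0.05. Fut2 lies farthest to the left at -1.55 and St6gal2 farthest to the right at 0.91.

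Fut2 showed the largest difference of the 44. It codes for the secretor fucosyltransferase, which adds fucose to terminal galactose and so makes the H antigen on epithelial surfaces and in secretions. Fut2 read 7.18, 7.18 and 7.29 on the Klf5-deleted arrays, against 9.24, 8.52 and 8.54 on the control arrays. The Klf5-deleted arrays lay close together, control 1 was the highest, and the groups did not overlap. Klf5-deleted bladders averaged 7.21 ± 0.06 and control bladders 8.76 ± 0.41 (SD, n = 3 each). Fut2 was 2.93-fold lower in Klf5-deleted bladders (log2 difference -1.55 with SE 0.18, 95% interval -1.98 to -1.12, adjusted p = 0.00856 by limma). Without Klf5-deleted 1 or Klf5-deleted 2 the adjusted p was 0.052 each by limma, and without control 2 it was 0.00598.

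The other 5 measured fucosyltransferase genes did not pass. Fut9, which makes the Lewis X structure, read 7.09, 6.93 and 6.82 on the Klf5-deleted arrays, against 7.34, 7.10 and 7.57 on the control arrays. Its groups lay 0.0035 apart without overlapping, and it differed by -0.39 (SE 0.13, adjusted p = 0.231 by limma). Fut4, another Lewis X enzyme, differed by -0.05, with a 95% interval of -0.22 to 0.12. Fut8, which attaches the core fucose of N-glycans, differed by 0.08 (-0.10 to 0.25). Fut10 had the widest spread of the 44 enzymes. It read 10.17, 9.73 and 9.30 on the Klf5-deleted arrays and 9.71, 9.30 and 9.78 on the control arrays, and its interval ran from -0.39 to 0.65. Fut11 differed by -0.08 on the feature used and by 0.07 on its second feature.

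St6galnac2 attaches sialic acid to the first sugar, N-acetylgalactosamine, of mucin-type chains. It read 8.75, 8.77 and 8.87 on the Klf5-deleted arrays, against 9.88, 9.70 and 9.60 on the control arrays. Every Klf5-deleted array lay below every control array, by at least 0.73. St6galnac2 fell by 0.93 on the log2 scale, or 1.91-fold (SE 0.09, 95% interval -1.13 to -0.73, adjusted p = 0.00307 by limma). It was the only one of the 5 called enzymes to pass in all 6 fits that left out 1 array, with adjusted p-values of 0.00564 to 0.0254 by limma.

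The 5 relatives of St6galnac2 did not pass. St6galnac1, which makes the sialyl-Tn antigen on the same sugar, differed by 0.02, with a 95% interval of -0.15 to 0.20. St6galnac3 and St6galnac4 add sialic acid to chains that already carry one. St6galnac3 differed by 0.19 (-0.01 to 0.38) and St6galnac4 by -0.16 (-0.41 to 0.09). St6galnac5 and St6galnac6, which act mainly on gangliosides, differed by 0.13 (-0.15 to 0.41) and -0.04 (-0.20 to 0.12). Whether St6galnac2 changed more than these relatives was not tested.

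The fall of Fut2 and St6galnac2 had the direction of the urothelium markers given above, 9 of 12 of which fell. Epcam, Krt5 and Trp63, the 3 markers that did not pass, differed by -0.39, -0.10 and -0.24 with overlapping groups. Over all genes 318 fell. In whole bladders fewer cells of a type and less RNA per cell cannot be told apart, and the part of the markers in both falls was not tested.

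St6gal2 showed the largest rise of the 44. It caps galactose of N-glycans with sialic acid, as does its paralog St6gal1. St6gal2 read 10.01, 10.23 and 10.44 on the Klf5-deleted arrays, against 9.29, 9.25 and 9.41 on the control arrays. The lowest Klf5-deleted array lay 0.61 above the highest control array. St6gal2 was 1.88-fold higher in Klf5-deleted bladders (log2 difference 0.91, SE 0.11, 95% interval 0.65 to 1.18, adjusted p = 0.00941 by limma). The adjusted p by limma was 0.052 without Klf5-deleted 2 and 0.053 without control 1, and 0.0207 without control 2.

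St6gal1 read 10.02, 9.97 and 9.83 on the Klf5-deleted arrays, against 9.53, 9.72 and 9.56 on the control arrays. The groups did not overlap, and the difference was 0.34 (SE 0.08, 95% interval 0.15 to 0.53), but the adjusted p was 0.101 by limma. Both paralogs read higher, with intervals that did not overlap; the difference between them was not tested.

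The other 2 rises were in the St8sia family, which links sialic acids to each other. St8sia1, the GD3 synthase that opens the ganglioside series with a pair of linked sialic acids, read 8.40, 8.58 and 8.23 on the Klf5-deleted arrays, against 7.92, 7.78 and 7.86 on the control arrays. St8sia4, which builds polysialic acid on the neural cell adhesion molecule, read 9.16, 9.08 and 8.86 on the Klf5-deleted arrays, against 8.49, 8.47 and 8.50 on the control arrays. In neither gene did the groups overlap, and the 3 control arrays of St8sia4 spanned 0.028. St8sia1 rose by 0.55 (SE 0.10, 95% interval 0.32 to 0.78, adjusted p = 0.0383 by limma). St8sia4 rose by 0.55 as well (SE 0.09, 95% interval 0.34 to 0.75, adjusted p = 0.0261 by limma). Each passed in 1 of the 6 fits that left out an array, the fit without Klf5-deleted 3. Without control 2 the adjusted p by limma was 0.0865 for St8sia1 and 0.0606 for St8sia4.

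St8sia2, the other polysialic acid synthase, read 9.29, 9.09 and 9.14 on the Klf5-deleted arrays, against 8.50, 8.90 and 8.83 on the control arrays. The groups did not overlap, and it differed by 0.43 (SE 0.12, adjusted p = 0.143 by limma). Ncam1, the main carrier of polysialic acid, differed by -0.03 (SE 0.07, adjusted p = 0.898 by limma). St8sia3 differed by 0.19, with a 95% interval of -0.15 to 0.53. St8sia5, a ganglioside enzyme, and St8sia6, which acts on O-glycans, read lower in Klf5-deleted bladders, at -0.32 (SE 0.11) and -0.33 (SE 0.07). Their groups did not overlap, and their adjusted p-values were 0.255 and 0.0903 by limma. St8sia3, St8sia5 and St8sia6 averaged 6.53, 6.25 and 6.47 in Klf5-deleted and 6.34, 6.57 and 6.80 in control bladders. The array medians over all genes were higher, at 8.43 to 8.50, and no feature could be called above background. The St8sia genes were mixed in direction, with 4 higher and 2 lower, both of the lower ones dim. The groups were apart for 5 of the 6, beside 20.5% of all genes.

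Markers of other cells were set beside the rises. The 6 skeletal muscle markers were all higher and none passed, with 3 at an unadjusted p under 0.05 by limma, beside 14.4% of all genes. Their mean log2 level was 9.59, 10.09 and 10.68 on Klf5-deleted 1, 2 and 3, against 9.18, 9.97 and 9.26 on the control arrays. On the Klf5-deleted arrays these means stood in the same order as St6gal2. St8sia4 ran in the opposite order there, and St8sia1 in neither. On control 2, the control with the highest marker mean, St6gal2 read lowest of all arrays. Orders among 3 arrays are too short to decide whether a gene and these markers go together. The order of the called enzymes was compared with no other marker list. The 6 neuron and glia markers had means of 7.65 to 8.03 in Klf5-deleted and 7.45 to 8.23 in control bladders, with none past the threshold, none at an unadjusted p under 0.05 by limma and the highest mean on control 2. The 5 erythroid markers were all higher and none passed, with a median difference of 0.254 and means of 11.49 to 12.14 in Klf5-deleted and 10.70 to 12.35 in control bladders. The means were 10.66 to 11.02 and 10.83 to 10.98 for 6 endothelium markers and 8.76 to 8.94 and 8.69 to 9.45 for 6 leukocyte markers, in Klf5-deleted and control bladders, and no marker of these passed. Of erythroid, endothelium and leukocyte markers 0, 2 and 0 had an unadjusted p under 0.05 by limma. Of 5 mesothelium markers Wt1 rose by 0.54 and Msln fell by 1.42. The 6 mesenchyme markers given above held no rise. Pdgfra among them differed by 0.28 without overlap (SE 0.07, adjusted p = 0.13 by limma). The part of these cells in the rises was not tested.

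**Figure D2:**
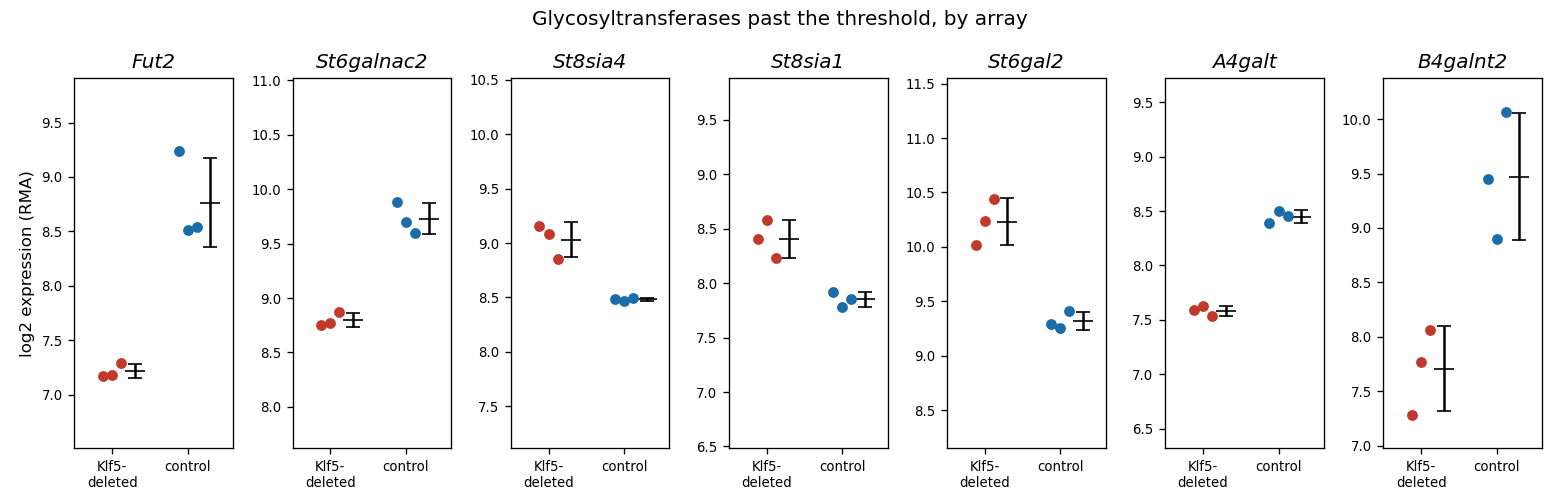
Log2 expression (vertical axes, each spanning the same log2 range) on the 3 Klf5-deleted arrays (red) and the 3 control arrays (blue) for the 5 enzymes past the threshold and for A4galt and B4galnt2, described further on. Bars are means ± SD (n = 3 each). The groups do not overlap in any of the 7 genes, and the control arrays of Fut2 and all arrays of B4galnt2 are more spread than those of A4galt.

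Of the 5 called enzymes, St6gal2, St8sia1 and St8sia4 were matched in the RefSeq promoter table, and Fut2 and St6galnac2 were not. The promoters of the 3 are shown so that the sequence next to each start can be read beside its values. The capitals mark matches to CCNCNCCC, a sequence that Kruppel-like and Sp factors are known to bind, on either strand. Each runs from 250 bases before the RefSeq start of the gene to 50 bases from it on, in assembly GRCm38.p6. St6gal2 lies at chr17:55445132-55445431 on the plus strand, St8sia1 at chr6:142964403-142964702 on the minus strand and St8sia4 at chr1:95667545-95667844 on the minus strand.
St6gal2: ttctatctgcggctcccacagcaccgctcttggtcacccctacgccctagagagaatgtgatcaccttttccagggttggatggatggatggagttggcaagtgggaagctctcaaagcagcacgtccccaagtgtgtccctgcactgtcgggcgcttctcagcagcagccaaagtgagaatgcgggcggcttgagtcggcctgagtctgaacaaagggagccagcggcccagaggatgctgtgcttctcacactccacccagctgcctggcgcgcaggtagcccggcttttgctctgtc
St8sia1: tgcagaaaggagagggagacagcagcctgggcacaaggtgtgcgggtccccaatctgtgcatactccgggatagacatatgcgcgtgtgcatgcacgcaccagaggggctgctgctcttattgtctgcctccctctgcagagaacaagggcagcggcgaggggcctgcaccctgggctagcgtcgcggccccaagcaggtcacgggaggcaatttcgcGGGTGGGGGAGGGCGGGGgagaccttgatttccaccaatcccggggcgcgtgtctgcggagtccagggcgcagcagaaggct
St8sia4: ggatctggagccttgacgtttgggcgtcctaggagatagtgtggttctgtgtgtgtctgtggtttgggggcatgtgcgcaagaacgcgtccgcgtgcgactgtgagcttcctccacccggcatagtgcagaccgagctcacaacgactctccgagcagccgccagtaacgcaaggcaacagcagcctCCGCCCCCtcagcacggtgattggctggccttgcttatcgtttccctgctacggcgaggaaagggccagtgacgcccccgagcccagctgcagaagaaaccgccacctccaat
The St6gal2 window held no match. The St8sia1 window held 3 matches, each overlapping its neighbour, which begin 32, 28 and 22 bases before the start. The St8sia4 window held 1, which begins 63 bases before the start. At least 1 match stood in 49.5% of all 32851 promoters in the table and in 69.0% of the 42 promoters found for 29 of the 44 enzymes. Such a match is a stretch of letters and not a measured site.

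The 6 St3gal genes differed little between the genotypes. These enzymes cap galactose with sialic acid in a linkage other than that made by the St6gal pair. Their differences ran from -0.16 for St3gal5, the GM3 synthase, to 0.09 for St3gal3, and none had an unadjusted p under 0.05. St3gal1, which caps mucin-type chains, read 10.34, 10.17 and 10.39 on the Klf5-deleted arrays and 10.46, 10.50 and 10.31 on the control arrays, with a 95% interval of -0.32 to 0.08. St3gal2 differed by 0.06 (-0.16 to 0.29). St3gal4, St3gal6 and St3gal3 sialylate N-glycan and Lewis-type chains. St3gal4 read higher on every Klf5-deleted array, 9.57, 9.59 and 9.57, than on the control arrays, 9.52, 9.51 and 9.48, yet it differed by only 0.07 (-0.06 to 0.21). St3gal6 differed by 0.01 (-0.16 to 0.17). The widest interval of the 6 was that of St3gal5, at -0.51 to 0.19.

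The Galnt genes, which start mucin-type chains, differed by -0.37 to 0.19, with 6 of 10 lower, and none passed. Galnt3 came nearest. It read 6.705, 6.828 and 6.669 on the Klf5-deleted arrays, against 6.996, 7.170 and 7.148 on the control arrays, without overlap (difference -0.37, SE 0.08, adjusted p = 0.0689 by limma). Galnt2 read 11.32, 11.24 and 11.42 on the Klf5-deleted arrays, against 11.64, 11.47 and 11.46 on the control arrays. It differed by -0.19 (SE 0.08, adjusted p = 0.34 by limma). Galnt14 was the one with the largest difference upwards, at 0.19 (SE 0.07, adjusted p = 0.275 by limma). Galnt6 differed by -0.23, Galnt10 by -0.13 and Galnt12 by -0.11. Galnt1 read 10.90, 10.93 and 10.93 on the Klf5-deleted arrays and 10.90, 10.91 and 10.85 on the control arrays, and its 95% interval was -0.10 to 0.17. Galnt4, Galnt7 and Galnt11 differed by 0.02, 0.09 and -0.03.

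The 4 Gcnt genes were all lower and none passed. Gcnt2, which makes the branched I antigen, read 8.17, 8.23 and 8.17 on the Klf5-deleted arrays, against 8.58, 8.51 and 8.25 on the control arrays. It differed by -0.26 (SE 0.09, adjusted p = 0.277 by limma). Gcnt1, Gcnt3 and Gcnt4 branch mucin-type chains; they differed by -0.23, -0.08 and -0.04, and the intervals of all 3 held 0.

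The B3gnt genes were mixed. B3gnt2, the main enzyme of polylactosamine chains, read 8.08, 8.25 and 7.88 on the Klf5-deleted arrays, against 8.53, 8.41 and 8.44 on the control arrays. The groups did not overlap, and it differed by -0.39 (SE 0.10, adjusted p = 0.127 by limma). B3gnt3, which extends mucin-type chains, differed by -0.15 (95% interval -0.37 to 0.07). B3gnt5, which starts the lacto-series glycolipids, differed by 0.15 (-0.16 to 0.45), and B3gnt7 by 0.23 (-0.01 to 0.47).

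**Figure D3:**
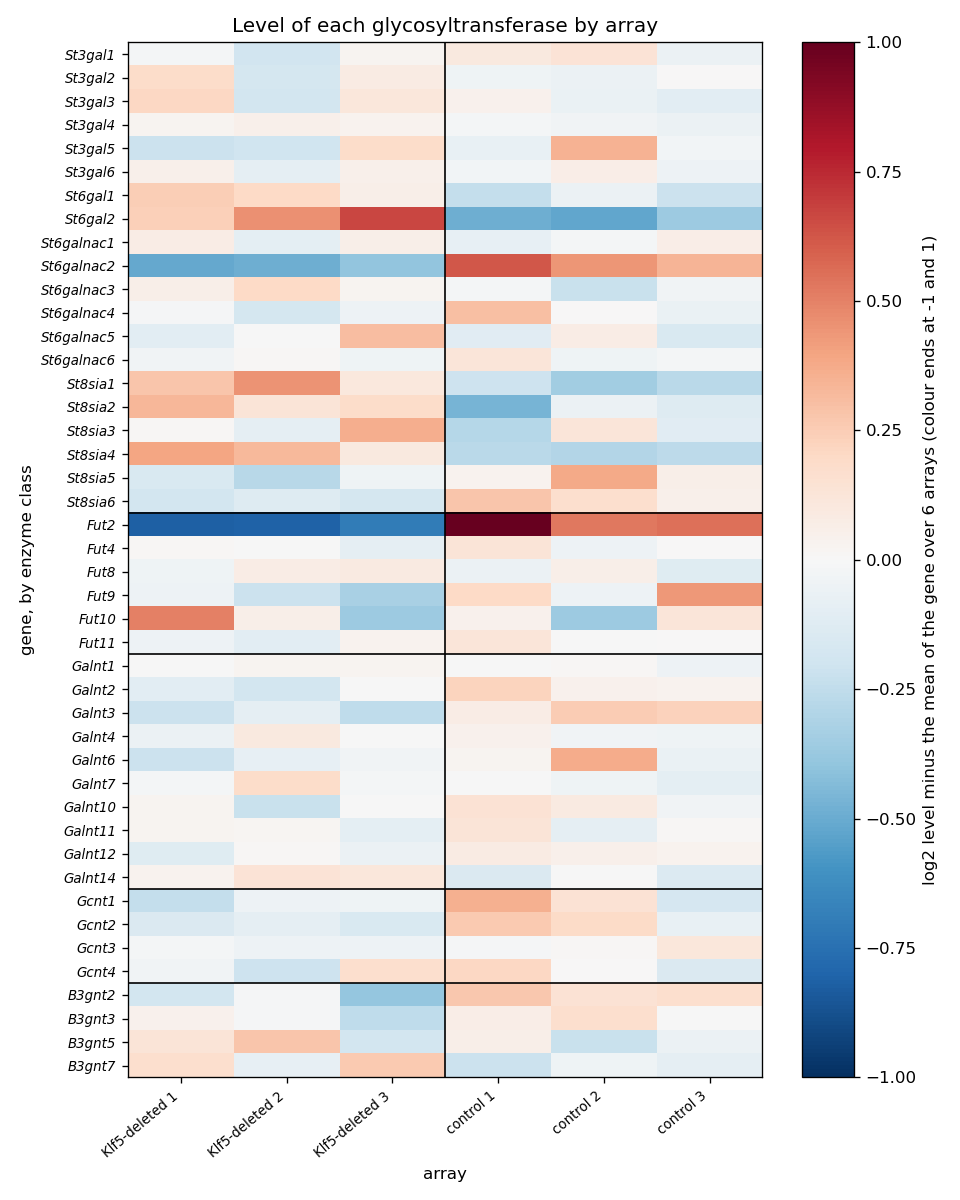
Log2 level of each of the 44 enzymes on each array minus its mean over the 6 arrays (colour), with the Klf5-deleted arrays left and the control arrays right and lines between the enzyme classes. Fut2 and St6galnac2 are blue on all 3 Klf5-deleted arrays and St6gal2, St8sia1 and St8sia4 are red there; most St3gal and Galnt rows are pale.

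The rest of the pathway was read from 5 lists. Of their 77 measured genes 2 fell and none rose, or 2.60%, beside 1.98% of all genes, and both lie among 20 core, galactosyl and terminal transferases. A4galt makes the globoside Gb3, the Pk antigen. It read 7.59, 7.63 and 7.54 on the Klf5-deleted arrays, against 8.39, 8.50 and 8.45 on the control arrays. A4galt fell by 0.86 (SE 0.06, adjusted p = 0.0014 by limma) and passed in all 6 fits that left out an array. B4galnt2, which completes the Sda blood-group antigen on sialylated galactose, read 7.28, 7.77 and 8.06 on the Klf5-deleted arrays, against 9.45, 8.90 and 10.06 on the control arrays. It was 3.40-fold lower (-1.76 on the log2 scale, SE 0.30, adjusted p = 0.0362 by limma), and of the 6 fits with an array left out it passed in the fit without control 2 alone. Like Fut2, each of these 2 enzymes makes a blood-group antigen. Other makers of such antigens did not pass. Abo, Gbgt1 and Gcnt2 differed by -0.06, -0.17 and -0.26 (adjusted p = 0.765, 0.636 and 0.277 by limma).

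None of 18 further transferases of the Galnt, fucosyltransferase, B3gnt and Gcnt families passed. Galnt17 was the most different, at -0.79 (SE 0.18, adjusted p = 0.0929 by limma). Of 17 genes that make or carry donor sugars none passed; Slc35c1, the Golgi transporter of GDP-fucose, differed by -0.36 (SE 0.09, adjusted p = 0.0989 by limma). Gne, the first enzyme of sialic acid synthesis, differed by -0.17. None of 6 sialidases and fucosidases and none of 16 mucins and mucin-like carriers passed. In the carrier list the largest difference was that of Muc15, at -0.37 (SE 0.10, adjusted p = 0.156 by limma). At an unadjusted p under 0.05 limma placed 2 of 18, 4 of 17, 1 of 6 and 2 of 16 genes of these lists, beside 14.4% of all genes.

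The promoters of A4galt and B4galnt2 are shown beside those of the genes that rose, with the same window, assembly and capitals. A4galt lies at chr15:83251680-83251979 and B4galnt2 at chr11:95914822-95915121, both on the minus strand.
A4galt: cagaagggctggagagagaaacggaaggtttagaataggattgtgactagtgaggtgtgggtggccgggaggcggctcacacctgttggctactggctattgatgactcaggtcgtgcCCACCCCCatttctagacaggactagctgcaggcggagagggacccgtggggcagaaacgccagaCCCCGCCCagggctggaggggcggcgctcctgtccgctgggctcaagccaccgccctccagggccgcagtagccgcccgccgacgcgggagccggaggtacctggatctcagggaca
B4galnt2: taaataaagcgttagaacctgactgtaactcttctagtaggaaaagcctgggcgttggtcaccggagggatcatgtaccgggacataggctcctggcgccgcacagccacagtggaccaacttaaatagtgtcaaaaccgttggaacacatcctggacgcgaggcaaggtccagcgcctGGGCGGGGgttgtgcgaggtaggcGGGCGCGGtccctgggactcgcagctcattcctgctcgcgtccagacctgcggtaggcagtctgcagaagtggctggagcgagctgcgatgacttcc
Each window held 2 matches. They begin 132 and 67 bases before the start in A4galt and 71 and 47 bases before it in B4galnt2.

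Centring the arrays in other ways left the 5 calls past the threshold with their signs. With each array centred on its median there were 273 falls and 116 rises over all genes, and with the mean of 9 housekeeping genes 273 and 118. With the median of those 9 genes the counts were 261 and 1372, or 8.19% of all genes, whose median difference became 0.202. In that setting 8 of the 44 enzymes rose and 2 fell: St6gal1, St8sia2, St6galnac3, Galnt14 and B3gnt7 rose besides the 3 named above. Directions of enzymes that did not pass are therefore relative to this choice.

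**Figure D4:**
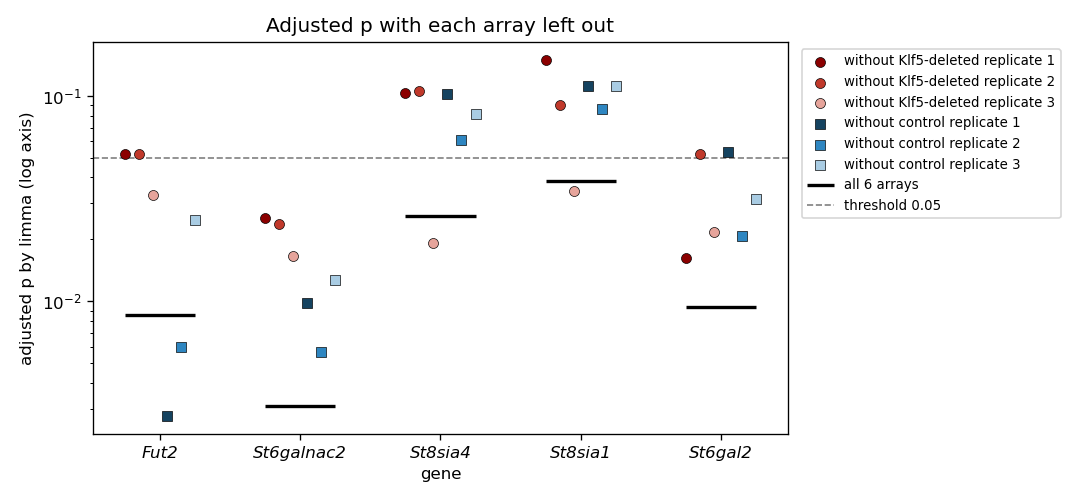
Adjusted p by limma (vertical log axis) of the 5 called enzymes with all 6 arrays (bars) and with each array left out (circles for Klf5-deleted, squares for control arrays). The dashed line is the threshold of 0.05. All points of St6galnac2 lie below it, 4 of 6 do for Fut2 and for St6gal2, and 1 of 6 for St8sia1 and for St8sia4.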

How the data were processed

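RNA of 3 Klf5-deleted and 3 control pools was measured on 1 array each. The authors deposited log2 values per feature, made with RMA per the submitters' processing notes. RMA subtracts background, brings the arrays to equal quantiles and merges the probes of a feature. Their range over the genes tested, 3.54 to 14.5, gave the log2 scale. For the genome build, probe annotation and RMA version, the sources used here give nothing. No scanner files were used, so no feature could be called above background, and dim features may show compressed differences. With 3 arrays per group, their number limits the precision.

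Of 35557 features 21789 had a single gene symbol, 1621 several and 12147 none here. The single ones gave 19938 genes, the feature with the highest mean standing for the 999 genes with more than 1. Of these genes 19856 matched a RefSeq table of GRCm38.p6 by Entrez identifier. No gene was filtered out for a low level. limma 3.58.1 in R 4.3.3 (lmFit, eBayes without trend, two-sided, Benjamini-Hochberg over all genes) tested Klf5-deleted minus control; exact permutation of 3 against 3 cannot go below p = 0.1. On simulated arrays of 19938 genes with 200 changed, 97.9% of 2-fold and 67.0% of 1.41-fold changes were recovered and 5.01% of calls were false; genes and arrays varied independently there.

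The members, the 5 pathway lists and the marker lists were chosen with earlier results of these data known. The genes named are Klf5, the members, called pathway genes and up to 3 others per pathway list with the largest differences. Gne, Ncam1, Abo, Gbgt1, Pdgfra, Epcam, Krt5, Trp63 and the mesothelium markers were named besides. The motif was chosen after the values were seen. Promoter sequences are from RefSeq. Same-numbered pools were not treated as pairs. The alternatives were 3 centrings, a filter on dim genes, the mean over features, an intensity trend, a replicate block and leaving out each array.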

Additional observations from a re-analysis of the deposited data

How the results depend on the processing

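Each of 13 alternatives was fitted to all genes. Of 554 values for single enzymes 500 kept their direction and side of the threshold, 17 lost the call, 5 gained it and 32 changed sign, none of these last past the threshold in either fit. Over all genes the falls were 318, or 124 to 285 with an array left out, 171 among brighter genes only (those above the median level) and 105 with the replicate block. The rises were 77, or 17 to 64 with an array left out, 116, 118 and 1372 with arrays centred on their median, on the housekeeping mean and on the housekeeping median, and 5 with the replicate block. Among the enzymes the falls were 2, or 1 to 2 with an array left out and 1 with the replicate block. The rises were 3, or 0 to 3 with an array left out, 8 with the housekeeping median and 1 with the block. Among brighter genes, where Fut2 and St8sia1 were not tested, 3 enzymes passed, 1 of them a fall. No enzyme rose past the threshold without Klf5-deleted 2 or without control 1. St6gal2 and St6galnac2 passed with the block, and Klf5 did not (adjusted p = 0.137 by limma). The median difference was -0.038, or -0.048 to 0.004 with an array left out, 0.00214, 0.00888 and 0.174 with the 3 centrings and 0.048 among brighter genes. Same-numbered pools correlated at 0.00915, 0.0313 and 0.0787 in their deviations from the group means, and not every array correlated best with its own number, so the block describes numbers and not a known pairing. The cause of these shifts was not tested.

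Of the 32 sign changes 17 came with centring and 15 with an array left out. Galnt11 read 0.01 with the array median and 0.01 with the housekeeping mean, where St6galnac6 read 0.01 and Gcnt4 0.00. With the housekeeping median St3gal1 read 0.09, St3gal5 and St6galnac4 0.05, St6galnac6 and Gcnt4 0.17, Fut4 0.16, Fut11 and Gcnt3 0.13, Galnt2 0.02, Galnt10 0.08, Galnt11 0.18, Galnt12 0.10 and B3gnt3 0.06. With an array left out the ranges that crossed 0 were -0.01 to 0.16 for St3gal2, -0.02 to 0.05 for St3gal6, -0.01 to 0.08 for St6galnac1, -0.07 to 0.01 for St6galnac6, -0.09 to 0.35 for Fut10, -0.02 to 0.06 for Galnt4, -0.09 to 0.02 for Galnt11 and -0.14 to 0.05 for Gcnt4.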
